A study of Mus musculus with 28 samples.

Results

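The genes described here carry signals of the interleukin-6 (IL-6) cytokine family and of growth hormone through JAK kinases and STAT factors in the liver. The group comprised 10 of the 21935 genes in the counts table, chosen by symbol and matched to their Ensembl identifiers. Messenger RNA of whole liver was sequenced from 28 male mice of the genotype B6.V-Lepob/JRj. These *ob/ob* mice lack leptin throughout the body and become obese. All received the AMLN diet, which supplies much fat, fructose, and cholesterol and brings on steatohepatitis. It was given for 14 weeks before treatment and throughout treatment. In the 2 weeks of treatment the 10 vehicle mice, the 9 mice on obeticholic acid (OCA, 30 mg/kg), and the 9 mice on INT-787 (30 mg/kg) were dosed by mouth each day. Both drugs are agonists of the farnesoid X receptor, the nuclear receptor for bile acids. The question was how the drugs, at a matched dose, altered hepatic expression of this pathway. Both were compared with the same vehicle mice, and all groups carried the leptin mutation and the diet, so no lean or chow-fed reference was part of the comparisons.

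Cytokines of the IL-6 family bind a specific receptor chain that pairs with the shared chain gp130, and the JAK kinases attached to these chains phosphorylate STAT3. STAT3 then turns on acute phase genes in hepatocytes, along with *Socs3*, whose product blocks gp130. Growth hormone acts in parallel through its receptor, JAK2, and STAT5b, which drives *Igf1*, *Socs2*, *Cish*, and genes expressed differently in male and female liver. The SOCS proteins and CIS, the product of *Cish*, close these loops by inhibiting the receptors that induced them.

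STAT dimers bind palindromes of the form TTCNNNGAA. This motif, which reads the same on either strand, was searched in RefSeq promoter windows of 300 bp (250 bp before to 50 bp after a start site, GRCm38.p6), of which 11 belonged to 9 of the 10 genes. *Socs2* had no window. Across all 32851 windows, 8.3% held the motif. It was present in the windows of *Socs3* and *Cish*, both feedback inhibitors, and was not found in those of *Il6ra*, *Il6st*, *Lifr*, *Jak1*, *Jak2*, *Stat3*, and *Stat5b*. The stretches that hold it are shown with the matches in capitals, because these are the letters the STAT factors of the group are known to read. A match is a description of the letters and not evidence of binding in these livers.
*Socs3*, chr11:117969497-117969556, minus strand: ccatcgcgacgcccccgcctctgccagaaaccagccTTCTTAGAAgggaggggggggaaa
*Cish*, chr9:107296619-107296678, plus strand: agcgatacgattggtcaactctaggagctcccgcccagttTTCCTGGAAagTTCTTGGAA
The *Socs3* match began 154 bp before the start site. The 2 *Cish* matches began 0 and 11 bp after it and did not overlap each other.

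The libraries held 1009593 (vehicle replicate 6) to 22421506 counts, the next lowest total being 9313260 and the median 14864947. In vehicle replicate 5, genes largely covered by exons of the opposite strand took 0.134% of the counts, against 0.0261% to 0.0391% in the other mice. Results are therefore given for all mice, and both calls reported for the 10 genes also held without these 2 mice together. Of the 9 sets of cell type markers, hepatocyte markers were high in every group, with summed levels of 60453 to 133531 CPM (counts relative to the library total, scaled to a common total) in vehicle, 103709 to 195767 with OCA, and 93790 to 166004 with INT-787. No marker of the other cell types had a mean of 0 in any group. In whole liver, fewer cells of a type and less RNA per cell cannot be told apart.

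The share of the 10 genes that changed was close to or below that of all tested genes. With INT-787, 2 of them passed an adjusted *p* of 0.05 against vehicle, where 19.6% of the 12580 tested genes did (edgeR quasi-likelihood test, Benjamini-Hochberg over all tested genes). *Stat5b* rose 1.37-fold and *Socs2* fell to 0.496 of the vehicle level. With OCA, 0 of the 10 genes passed against a background of 6.6%, and 2 of them (*Stat5b* and *Socs3*) had an unadjusted *p* under 0.05, as did 2332 of the 12580 tested genes. DESeq2 and limma-voom also called 0 with OCA. In the direct comparison of INT-787 with OCA, edgeR, DESeq2, and limma-voom each called 0 of the 10 genes against an edgeR background of 5.38%, and 0 had an unadjusted *p* under 0.05, against 2378 of all tested genes. The median log2 fold change of the 10 genes was -0.13 with INT-787 and -0.076 with OCA, and it was -0.0035 between the drugs. Over all tested genes the corresponding medians were -0.0010, 0.018, and -0.0065.

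**Figure D1:**
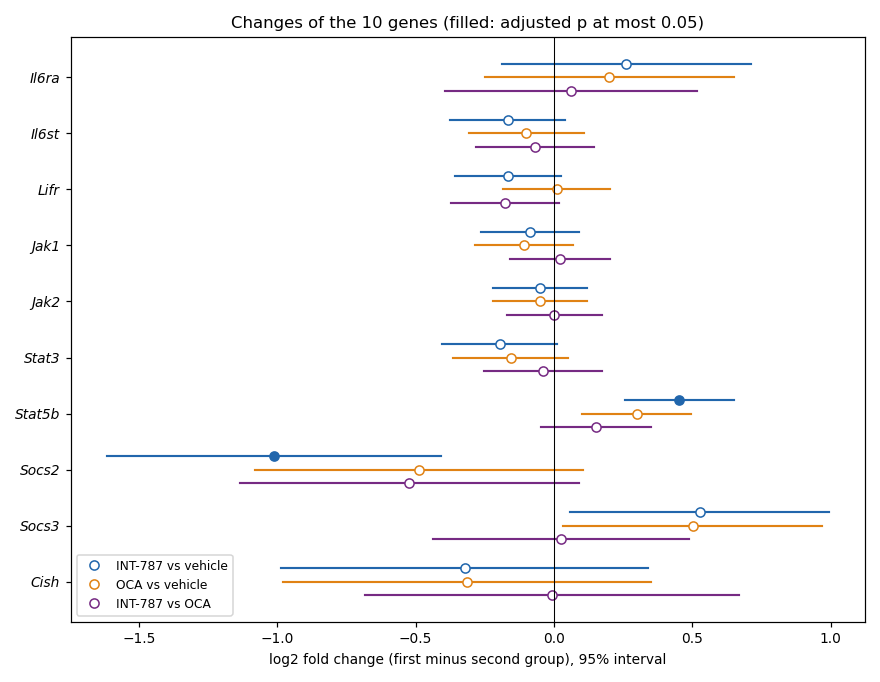
Log2 fold changes (x axis) of the 10 genes (y axis) with 95% intervals, in blue for INT-787 against vehicle, in orange for OCA against vehicle, and in purple for the direct comparison, where filled points passed an adjusted p of 0.05. Only *Stat5b* (0.45) and *Socs2* (-1.01) with INT-787 are filled, and the intervals between the drugs all include 0.

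The genes spanned a wide range of abundance. To compare genes, CPM was divided by exon length over all isoforms of a gene. In vehicle mice, *Il6st* had the highest level, at 19.8 ± 2.91 CPM per kb (SD, n = 10), followed by *Jak1* (16.7 CPM per kb), *Stat3* (9.15), *Stat5b* (7.98), *Jak2* (4.85), *Lifr* (4.70), *Il6ra* (3.36), *Socs3* (1.85), *Cish* (1.57), and *Socs2* (0.849). Neighbours in this order had overlapping ranges over the 10 mice, except *Stat5b* and *Jak2*, which did not overlap. In every group, the mean per-length levels of the receptor chains, kinases, and STAT genes were above those of the 3 inhibitors. *Stat3* and *Stat5b* changed places between the groups. Per length, *Stat3* was above *Stat5b* in 7 of 10 vehicle mice, whereas *Stat5b* was above *Stat3* in 7 of 9 OCA mice and in 9 of 9 INT-787 mice. In the INT-787 group *Stat5b* was at 10.9 ± 1.10 and *Stat3* at 7.97 ± 0.844 CPM per kb (SD, n = 9), and their ranges did not overlap. The isoforms in use were not measured, so the order rests on the full exon length of each gene.

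**Figure D2:**
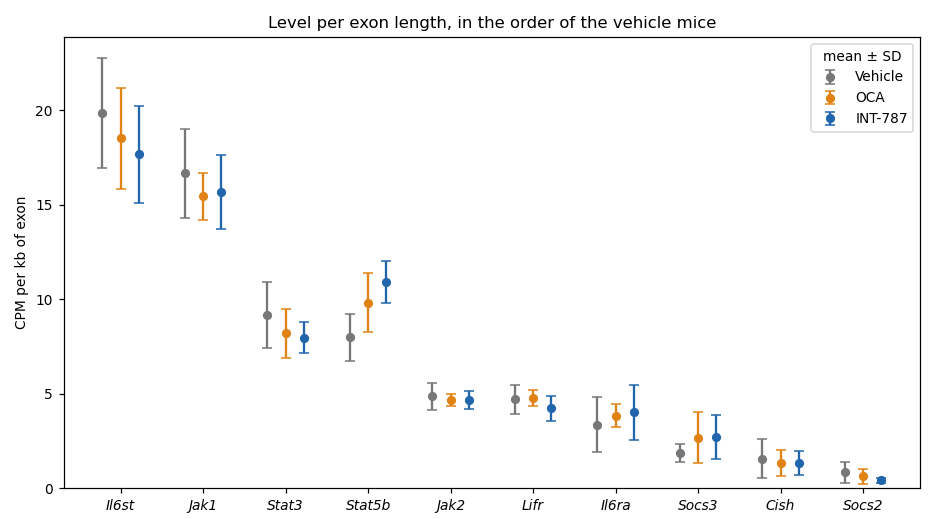
Level of each gene per kb of exon (y axis, CPM per kb) as mean ± SD for vehicle (n = 10, gray), OCA (n = 9, orange), and INT-787 (n = 9, blue), in the order of the vehicle means. *Il6st* and *Jak1* lead, the 3 inhibitors are lowest, and *Stat5b* stands above *Stat3* in both drug groups but not in vehicle.

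Of the receptor chains, none passed the test. *Il6ra* (ENSMUSG00000027947, GRCm38 chromosome 3, 89864059 to 89913196, minus strand) encodes the chain that binds IL-6 itself. Its lowest, median, and highest levels were 14.7, 31.98, and 54.8 CPM in vehicle, 25.9, 31.0, and 43.7 CPM with OCA, and 14.8, 37.0, and 49.98 CPM with INT-787. Vehicle replicates 5, 8, 9, and 10 and INT-787 replicates 4 and 7 all lay between 14.7 and 18.3 CPM, and the lowest of the other mice was at 25.9 CPM. No OCA mouse was in the low range. In the labels, sample numbers run in sets of neighbours that cross the groups, and INT-787 replicates 4 and 7 fell in the same sets as vehicle replicates 5 and 8, whereas the set partners of vehicle replicates 9 and 10 were not in the low range. The coefficient of variation was 43.8% in vehicle, 15.7% with OCA, and 36.0% with INT-787. Against vehicle, the log2 difference was 0.26 for INT-787 (95% interval -0.19 to 0.71, adjusted *p* = 0.448) and 0.20 for OCA (-0.25 to 0.65, adjusted *p* = 0.710). With these sets as a factor, the differences were 0.41 (unadjusted *p* = 0.0175, adjusted *p* = 0.0707) and 0.44 (unadjusted *p* = 0.0142, adjusted *p* = 0.131). A 242-bp stretch of its exons overlaps *Gm42809* on the opposite strand.

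*Il6st* (ENSMUSG00000021756, chromosome 13, 112464070 to 112510086, plus strand) encodes gp130, the chain all receptors of the family share. It reached 162, 221, and 265 CPM (lowest, median, highest) in vehicle, 143, 211, and 237 CPM with OCA, and 132, 207, and 230 CPM with INT-787. The ranges overlapped almost entirely, although 8 of 9 INT-787 mice were below the vehicle median. Log2 fold changes were -0.17 with INT-787 (-0.38 to 0.04, adjusted *p* = 0.267) and -0.10 with OCA (-0.31 to 0.11, adjusted *p* = 0.682). *Lifr* (ENSMUSG00000054263, chromosome 15, 7090614 to 7197489, plus strand), encoding the receptor for leukemia inhibitory factor, reached 38.6, 51.8, and 63.0 CPM in vehicle, 45.4, 51.5, and 58.4 CPM with OCA, and 38.5, 42.7, and 61.0 CPM with INT-787. Vehicle and OCA mice had nearly the same median, and 8 of 9 INT-787 mice were below it. The difference was -0.17 against vehicle (-0.36 to 0.03, adjusted *p* = 0.230) and -0.18 against OCA (-0.37 to 0.02, adjusted *p* = 0.331), so a fall of *Lifr* below 0.773 of the OCA level lay outside the interval.

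Neither kinase passed the test. *Jak1* (ENSMUSG00000028530, chromosome 4, 101152367 to 101265282, minus strand), the main kinase on gp130, reached 83.9, 126, and 139 CPM in vehicle, 93.3, 113, and 121 CPM with OCA, and 93.1, 120.3, and 129 CPM with INT-787. All 9 OCA mice were below the vehicle median, yet the ranges overlapped and the log2 difference was -0.11 (-0.29 to 0.07, adjusted *p* = 0.576). With INT-787 it was -0.09 (-0.26 to 0.09, adjusted *p* = 0.536). *Jak2* (ENSMUSG00000024789, chromosome 19, 29251828 to 29313080, plus strand), which the growth hormone receptor uses, reached 16.7, 25.2, and 28.1 CPM in vehicle, 21.5, 23.6, and 26.4 CPM with OCA, and 20.3, 23.5, and 26.7 CPM with INT-787. The groups overlapped throughout. The log2 fold change was -0.05 with either drug (-0.22 to 0.12 for both, adjusted *p* = 0.733 with INT-787 and 0.831 with OCA), and its interval between the drugs was -0.17 to 0.17.

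**Figure D3:**
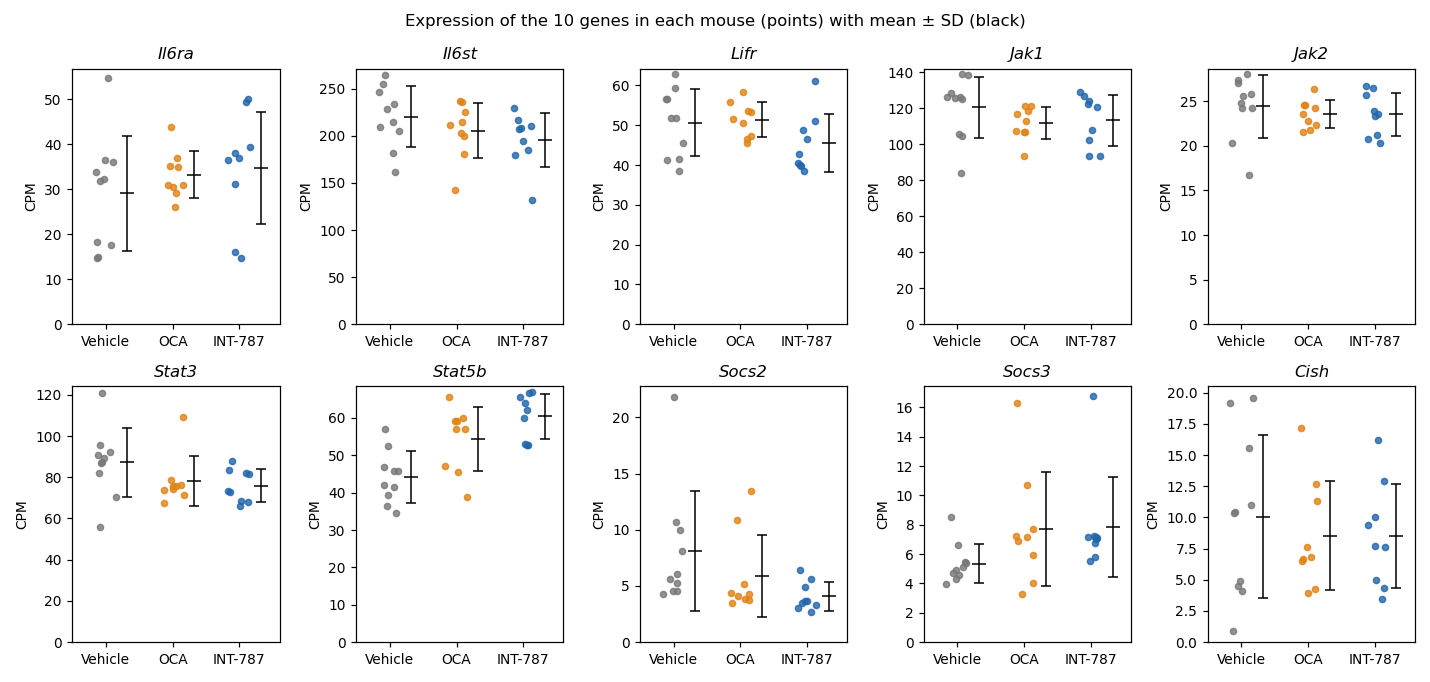
Expression (y axis, CPM) of each of the 10 genes in every vehicle (n = 10), OCA (n = 9), and INT-787 (n = 9) mouse (points), with mean ± SD in black. All INT-787 mice are above 50 CPM for *Stat5b*, *Il6ra* has a separate low set of mice in vehicle and INT-787, and single high mice stand out for *Socs2*, *Socs3*, and *Stat3*.

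Of the STAT genes, *Stat5b* passed the test and *Stat3* did not. *Stat5b* (ENSMUSG00000020919, chromosome 11, 100780731 to 100850724, minus strand) encodes the factor that carries the growth hormone signal in hepatocytes. It reached 34.7, 44.0, and 57.0 CPM in vehicle, 38.9, 56.9, and 65.6 CPM with OCA, and 52.7, 62.0, and 66.8 CPM with INT-787. Every INT-787 mouse was above the vehicle median and 6 of 9 were above the highest vehicle mouse, so the groups overlapped only at the edge. The means were 44.2 ± 6.92 CPM (SD, n = 10) in vehicle and 60.4 ± 6.08 CPM (SD, n = 9) with INT-787. The log2 fold change of 0.45 (SE 0.10, 95% interval 0.26 to 0.65) had an adjusted *p* of 0.000951 in edgeR, which stayed between 0.000130 and 0.00309 over every alternative, each mouse left out in turn included. With OCA the mean was 54.4 ± 8.56 CPM (SD, n = 9), and 8 of 9 mice were above the vehicle median. The log2 difference of 0.30 (0.10 to 0.50) had an adjusted *p* of 0.0577. It passed without vehicle replicate 1 (0.0359), vehicle replicate 8 (0.0208), OCA replicate 7 (0.0424), or OCA replicate 8 (0.0144), and its adjusted *p* over the alternatives ran from 0.0144 to 0.135. Between the drugs *Stat5b* differed by 0.15 (-0.05 to 0.35, adjusted *p* = 0.436), so a difference between INT-787 and OCA was not shown. Hepatocyte markers moved alongside, with 3 of 5 called higher than vehicle with each drug, and their part in the *Stat5b* result was not tested.

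*Stat3* (ENSMUSG00000004040, chromosome 11, 100885098 to 100939540, minus strand), the factor that carries the IL-6 signal, reached 55.9, 88.6, and 121 CPM in vehicle, 67.7, 75.6, and 109 CPM with OCA, and 65.8, 73.2, and 88.1 CPM with INT-787. All 9 INT-787 mice and 8 of 9 OCA mice were below the vehicle median, but both groups lay within the range of the vehicle mice. The log2 difference was -0.20 with INT-787 (-0.41 to 0.01, adjusted *p* = 0.185) and -0.16 with OCA (-0.37 to 0.05, adjusted *p* = 0.453). Vehicle replicate 10, at 55.9 CPM, was the lowest of all mice. Without it the difference with INT-787 was -0.25, with an adjusted *p* of 0.0461. It passed under 1 other alternative as well, and the adjusted *p* ran from 0.0433 to 0.391 over the alternatives. *Stat3* and *Stat5b* lie next to *Stat5a* on the same chromosome, and 72 bp of *Stat3* exons overlap exons of *Stat5a* on the opposite strand. *Stat5a* itself, which encodes the close relative of STAT5b, was at 11.98 ± 2.59, 11.6 ± 1.62, and 12.1 ± 2.19 CPM (SD) in the vehicle (n = 10), OCA (n = 9), and INT-787 (n = 9) groups. Its fitted log2 difference with INT-787 was -0.03 (adjusted *p* = 0.912). The fitted difference and the means had opposite signs, and no change was shown.

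Of the 3 feedback inhibitors, 1 passed the test. *Socs2* (ENSMUSG00000020027, chromosome 10, 95385362 to 95417180, minus strand) encodes an inhibitor of growth hormone signalling. It reached 4.30, 5.85, and 21.8 CPM in vehicle, 3.45, 4.32, and 13.5 CPM with OCA, and 2.68, 3.68, and 6.44 CPM with INT-787. In the INT-787 group, 6 of 9 mice were below the lowest vehicle mouse. The log2 fold change of -1.01 (SE 0.30, 95% interval -1.62 to -0.41) had an adjusted *p* of 0.0145 in edgeR. Its size depended on vehicle replicate 8, the mouse at 21.8 CPM, without which it was -0.69 with an adjusted *p* of 0.0618. With any other mouse left out it passed, and over all alternatives the adjusted *p* ran from 0.00453 to 0.0618. With OCA the log2 difference was -0.49 (-1.08 to 0.10, adjusted *p* = 0.398), with 7 of 9 mice below the vehicle median. OCA replicates 3 and 8, at 10.9 and 13.5 CPM, stood above the other OCA mice, which did not exceed 5.14 CPM. Between the drugs the difference was -0.52 (-1.14 to 0.09, adjusted *p* = 0.363). At these levels, vehicle replicate 6 contributed 5 counts of *Socs2*.

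*Socs3* (ENSMUSG00000053113, chromosome 11, 117966079 to 117970047, minus strand), the inhibitor whose promoter stretch is shown above, reached 3.93, 5.03, and 8.51 CPM in vehicle, 3.30, 7.17, and 16.3 CPM with OCA, and 5.52, 7.08, and 16.8 CPM with INT-787. All 9 INT-787 mice and 7 of 9 OCA mice were above the vehicle median. All but 1 of the INT-787 mice nevertheless lay within the vehicle range. Log2 differences were 0.53 with INT-787 (0.06 to 0.99, unadjusted *p* = 0.0283, adjusted *p* = 0.105) and 0.50 with OCA (0.03 to 0.97, unadjusted *p* = 0.0362, adjusted *p* = 0.226), so neither passed over all genes tested. Without INT-787 replicate 8, the mouse at 16.8 CPM, the INT-787 difference was 0.31 (adjusted *p* = 0.326), and without OCA replicate 1 the OCA difference was 0.29 (adjusted *p* = 0.539). The INT-787 difference passed only when vehicle and INT-787 mice alone were fitted (adjusted *p* = 0.0461, in a range from 0.0461 to 0.326). Between the drugs it was 0.02 (-0.44 to 0.49). *Cish* (ENSMUSG00000032578, chromosome 9, 107296026 to 107302784, plus strand), an immediate STAT5 target, reached 0.919, 10.4, and 19.6 CPM in vehicle, 3.92, 6.85, and 17.2 CPM with OCA, and 3.47, 7.69, and 16.2 CPM with INT-787. Its lowest value was a single count in vehicle replicate 6. The groups overlapped throughout, with log2 differences of -0.32 for both drugs (INT-787 -0.99 to 0.34, adjusted *p* = 0.538, and OCA -0.98 to 0.35, adjusted *p* = 0.688). These intervals are too wide to show whether *Cish* changed. Moreover, 740 of 6419 bp of its exons overlap *Gm17040* and *Gm17041* on the opposite strand.

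The ligands were scarce in these livers. Of 10 listed ligands of the family, 2 were abundant enough to test. Neither passed in any comparison, where 19.6% of all tested genes passed for INT-787 against vehicle, 6.6% for OCA against vehicle, and 5.38% between the drugs. An unadjusted *p* under 0.05 was found for 0 with INT-787 against vehicle, 1 with OCA against vehicle, and 0 between the drugs. Of 12580 tested genes, 4065, 2332, and 2378 had such a *p* in these comparisons. *Il6* itself was at 0.022, 0.020, and 0.005 CPM in the vehicle, OCA, and INT-787 groups. *Ctf1*, encoding cardiotrophin-1, was the most abundant of those tested, at 5.75, 6.90, and 6.66 CPM. Its log2 differences were 0.26 with OCA (adjusted *p* = 0.176) and 0.21 with INT-787 (adjusted *p* = 0.185).

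Of 14 other receptor chains tested, INT-787 lowered 5 and raised 1, beside backgrounds of 9.48% of all tested genes lower and 10.2% higher, and with 1 mouse left out the number lowered ran from 2 (without INT-787 replicate 3) to 5. *Lepr*, encoding the leptin receptor, fell from 6.71 ± 2.15 CPM (SD, n = 10) to 3.71 ± 2.02 CPM (SD, n = 9) with INT-787, a log2 difference of -0.89 (adjusted *p* = 0.00386). With OCA it fell to 4.04 ± 1.04 CPM (SD, n = 9), by 0.76 on the log2 scale (adjusted *p* = 0.0277), a call kept in 23 of 28 fits that each left out 1 mouse. *Il27ra*, a receptor chain for IL-27, fell by 0.62 and *Osmr*, which pairs with gp130 to bind oncostatin M, fell by 0.61 on the log2 scale with INT-787 (adjusted *p* = 0.0118 and 0.0348). The *Osmr* call was kept in 21 of these 28 fits. With INT-787, 4 of 4 monocyte-derived macrophage, 4 of 6 stellate cell and fibroblast, and 2 of 6 Kupffer cell and macrophage markers were also lower than with vehicle, and their part in the falls of these receptor chains was not tested. *Il22ra1*, through which IL-22 activates STAT3 in hepatocytes, rose from 4.46 to 7.19 CPM (log2 fold change 0.77, adjusted *p* = 0.00680). *Ghr*, encoding the growth hormone receptor, was at 461, 475, and 468 CPM in the vehicle, OCA, and INT-787 groups, with a log2 difference of 0.02 for INT-787 (adjusted *p* = 0.929). OCA lowered 1 of the 14 (*Lepr*, 0 to 2 with 1 mouse left out), beside backgrounds of 2.45% lower and 4.15% higher. Between the drugs 0 of 14 passed in edgeR and 3 had an unadjusted *p* under 0.05, where 2378 of 12580 tested genes did, and the count was 1 in DESeq2, in which *Il22ra1* passed, and 0 in limma-voom.

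Among the other kinases and STATs, 1 of 6 tested genes passed with INT-787, where 19.6% of all tested genes did. *Jak3*, the kinase of lymphoid cytokine receptors, fell from 20.2 ± 2.81 to 13.6 ± 2.46 CPM with INT-787 (SD, n = 10 and n = 9, log2 fold change -0.56, edgeR adjusted *p* = 0.00115). Of 15 other negative regulators, INT-787 lowered 3 and raised 0, where 9.48% of all tested genes were lower and 10.2% higher. They were *Ptprc*, the leukocyte phosphatase CD45 (log2 fold change -0.61), *Dusp1*, a phosphatase of MAP kinases (-0.56), and *Ptpn1*, which dephosphorylates JAK2 (-0.26). Without vehicle replicate 9 the count was 1. OCA lowered *Dusp1* by 0.62 on the log2 scale (adjusted *p* = 0.0254), beside a background of 2.45% lower. With 1 mouse left out, the number of the 15 it lowered ran from 0 to 2. *Ptprc* had a log2 difference of -0.46 with OCA (adjusted *p* = 0.0519), which passed under 7 of 11 other alternatives, DESeq2 and limma-voom among them, and in 6 of 28 fits that left out 1 mouse. The *Dusp1* call with OCA was kept in 23 of 28 fits that left out 1 mouse and under 8 of 11 other alternatives, and the call with INT-787 in 27 of 28 and under 9 of 11. Neither was made by limma-voom. *Jak3*, *Ptprc*, and *Il27ra* are known from immune cells. All 4 markers of monocyte-derived macrophages were called lower with INT-787 than with vehicle, their summed level running from 39.9 to 158 CPM against 143 to 238 CPM in vehicle and 129 to 369 CPM with OCA. The part of these cells in the 3 results was not tested. Of the 4 proteases and protease partners that shed the IL-6 receptor, *Adam10* fell from 43.9 ± 5.80 to 34.6 ± 4.00 CPM with INT-787 (SD, n = 10 and n = 9, log2 fold change -0.35, adjusted *p* = 0.00479). This 1 of 4 (1 to 2 with 1 mouse left out) stood beside 9.48% of all tested genes lower. Markers of macrophages and of stellate cells were also lower with INT-787, as given above, and their part was likewise not tested. With OCA against vehicle and with INT-787 against OCA, edgeR, DESeq2, and limma-voom called 0 of the 4 proteases and partners, beside edgeR backgrounds of 6.6% and 5.38%. In edgeR, 1 and 2 of them had an unadjusted *p* under 0.05, where 2332 and 2378 of 12580 tested genes did.

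**Figure D4:**
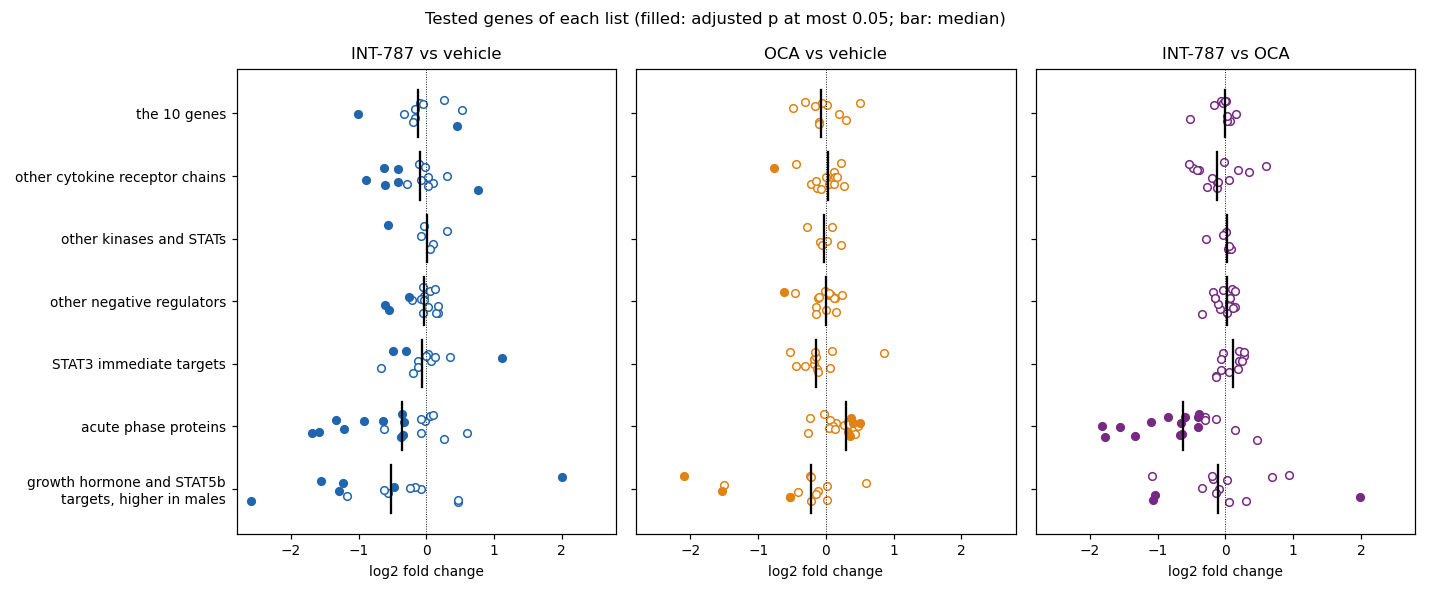
Log2 fold changes (x axis) of the tested genes in the 10-gene group and in 6 lists of related genes (rows) for the 3 comparisons (panels), with the median as a bar and filled points for an adjusted p of at most 0.05. The median of the acute phase genes is -0.35 in the INT-787 panel, 0.30 in the OCA panel, and -0.62 where the drugs are compared directly, with single genes on the other side of 0 in each panel.

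Genes downstream of STAT3 were counted next. Of 12 immediate targets, INT-787 raised *Bcl6*, a repressor (15.5 to 27.5 CPM, log2 fold change 1.11, adjusted *p* = 0.0460), and lowered *Bcl3* (-0.49, adjusted *p* = 0.0374), a partner of NF-κB, and *Icam1* (-0.30, adjusted *p* = 0.0360), an adhesion molecule. These 3 of 12 stood beside 19.6% of all tested genes. The 3 calls were kept in 14, 20, and 18 of 28 fits that each left out 1 mouse, and under 5, 9, and 9 of 11 other alternatives. DESeq2 did not call *Bcl6*. The *Bcl3* call was lost without vehicle replicates 5 and 6. OCA changed 0 of the 12 in edgeR, DESeq2, and limma-voom, beside a background of 6.6%. In edgeR, 3 had an unadjusted *p* under 0.05, where 2332 of 12580 tested genes did. Acute phase genes, the hepatic output of IL-6 signalling, fell in greater number. INT-787 lowered 10 of 18 and raised 0 against vehicle and lowered 13 of 18 against OCA, where the backgrounds were 9.48% and 3.19% lower. Serum amyloid A genes are among the strongest hepatic responders to IL-6. *Saa2* was at 158 ± 71.9, 174 ± 42.7, and 49.2 ± 14.1 CPM and *Saa1* at 143 ± 55.8, 194 ± 52.4, and 56.7 ± 16.8 CPM in the vehicle (n = 10), OCA (n = 9), and INT-787 (n = 9) groups (SD). For INT-787 against OCA their log2 fold changes were -1.82 and -1.77. For OCA against vehicle, neither *Saa2* (edgeR adjusted *p* = 0.801) nor *Saa1* (0.207) passed. With INT-787, *Orm2*, an orosomucoid, and *Lcn2*, encoding lipocalin 2, fell by 1.58 and 1.21 on the log2 scale against vehicle. Reads of the near-identical *Saa* and *Orm* genes may be divided between copies. Markers of macrophages and stellate cells were also lower with INT-787, as given above, and their part in these counts was not tested. OCA raised 5 of 18 acute phase genes and lowered 0, where 4.15% of all tested genes were higher and 2.45% lower. *Saa1*, *Saa2*, *Orm2*, and *Lcn2* were not among the 5. Of 5 hepatocyte markers, 3 were also higher with OCA, and their part in this count was not tested. The number of acute phase genes raised ran from 2 to 7 with 1 mouse left out and from 1 to 8 under the other alternatives. The fall of acute phase genes with INT-787 stood beside *Stat3*, *Il6ra*, *Il6st*, and *Jak1* levels that did not pass the test, and any link between them was not tested.

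Genes regulated by growth hormone and STAT5b also changed, in both directions. Of 14 tested genes known to be higher in male liver, INT-787 lowered 5 and raised 1, where 9.48% of all tested genes were lower and 10.2% higher, and OCA lowered 3 and raised 0, where 2.45% were lower and 4.15% higher. Against OCA, INT-787 lowered 2 and raised 1 of them, beside backgrounds of 3.19% and 2.19%. The gene raised against OCA was *Cyp4a12b* (log2 fold change 1.99, adjusted *p* = 0.0305), called in 22 of 28 fits that left out 1 mouse and under 8 of 10 other alternatives. *Mup20*, a major urinary protein, fell from 2196 ± 919 to 744 ± 391 CPM with INT-787 (SD, n = 10 and n = 9, log2 fold change -1.56, adjusted *p* = 5.11e-05). *Selenbp2*, a selenium-binding protein gene, fell with both drugs, by 1.23 with INT-787 and 1.54 with OCA on the log2 scale. The fatty acid hydroxylase gene *Cyp4a12a* fell by 2.10 on the log2 scale with OCA (adjusted *p* = 0.0349), and its log2 difference with INT-787 was -1.17 (adjusted *p* = 0.175). The OCA call was kept in 20 of 28 fits that left out 1 mouse and under 9 of 11 other alternatives, and it was lost without vehicle replicates 5 and 6. *Cyp4a12b* rose by 2.00 on the log2 scale with INT-787 (adjusted *p* = 0.00903), and its difference with OCA was 0.02 (adjusted *p* = 0.997). These near-identical copies, like the *Mup* genes, may share reads. *Igf1*, the main STAT5b target in hepatocytes, was at 348 ± 77.7, 323 ± 77.6, and 329 ± 98.4 CPM (SD) in the vehicle (n = 10), OCA (n = 9), and INT-787 (n = 9) groups, with log2 differences of -0.08 and -0.11 against vehicle for INT-787 and OCA (adjusted *p* = 0.772 and 0.794). Of 9 tested genes known to be higher in female liver, INT-787 raised 3 and lowered 1, beside the same backgrounds of 10.2% and 9.48%. OCA raised 1 and lowered 0 of the 9, where 4.15% of all tested genes were higher and 2.45% lower. Against OCA, INT-787 raised 1 and lowered 1 of them, where 2.19% of all tested genes were higher and 3.19% lower. The gene lowered against OCA was *Cyp2a4* (log2 fold change -1.50, adjusted *p* = 0.0301), called in 22 of 28 fits that left out 1 mouse. *Fmo2*, a flavin monooxygenase gene, rose by 1.00 and *Cyp2b13* by 1.99, whereas *Cyp2a4* fell by 2.53 on the log2 scale with INT-787. The *Cyp2b13* call was lost without INT-787 replicate 3 and kept under 7 of 10 other alternatives (limma-voom did not call it), and the *Fmo2* call was kept under 10 of 11. The hepatocyte markers that were higher with each drug and the macrophage and stellate cell markers that were lower with INT-787 moved beside these lists too, and their part was not tested.

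Over mice, 8 relations were examined as deviations from the group mean of log2(CPM + 1), with 100000 permutations within groups. *Socs2* followed *Igf1*, another growth hormone target (Pearson r = 0.54, permutation *p* = 0.00180, adjusted 0.00720, Spearman rho = 0.52, permutation *p* = 0.00414, adjusted 0.0331, 28 mice). Within groups r was 0.43 in vehicle, 0.74 with OCA, and 0.64 with INT-787, and it was 0.66 without vehicle replicate 8 and OCA replicate 8, the mice farthest from the median of *Socs2*. *Jak1* followed *Il6st* (r = 0.68, permutation *p* = 0.000230, adjusted 0.00184, rho = 0.48, permutation *p* = 0.0136, adjusted 0.0544), with r of 0.83, 0.79, and 0.49 within the vehicle, OCA, and INT-787 groups and 0.51 without vehicle replicate 10 and INT-787 replicate 8. The other 6 relations had adjusted permutation *p* values of at least 0.307 for r. Among these were *Socs2* with *Cish* (r = 0.30, adjusted permutation *p* = 0.344), *Socs2* with *Stat5b* (r = -0.09), *Socs3* with *Stat3* (r = 0.21), and *Socs3* with the mean level of the 18 acute phase genes (r = 0.09). Within the vehicle, OCA, and INT-787 groups, r was 0.31, -0.38, and -0.57 for *Socs2* with *Stat5b* and 0.55, -0.52, and -0.051 for *Socs3* with the acute phase genes, so these pooled values join groups of opposite sign.

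Levels of 5 of the 10 genes moved with a length index computed from each library. For each mouse a length index was taken as the mean log2(CPM + 1) of the 10% of tested genes with the longest exons (at least 9948.5 bp) minus that of the 10% with the shortest (at most 1834.5 bp). It was chosen after the data were seen, and *Il6st* (11099 bp) and *Lifr* are themselves among the genes with the longest exons. How many of all tested genes follow the index was not counted, so the 5 of 10 cannot be called particular to this group. Whether the index reflects the libraries or the livers was not tested. Over the 28 mice, as deviations from group means, *Jak1* followed the index with r = 0.85, *Jak2* with 0.74, *Il6st* with 0.66, *Stat5b* with 0.58, and *Stat3* with 0.52 (adjusted permutation *p* from 0.0001, the smallest that 100000 permutations can give once adjusted over the 10 genes, to 0.0434, with unadjusted values up to 0.0217). Spearman rho was 0.76, 0.64, 0.47, 0.47, and 0.39 in the same order, and all but the rho of *Stat3* (permutation *p* = 0.0483, adjusted 0.0939) passed. Without the 2 mice farthest from the median of the index, r was 0.78, 0.56, 0.59, 0.45, and 0.31. The other 5 genes, among them *Lifr* and *Socs2* with long exons (10776 and 9531 bp), had r between -0.29 (*Cish*) and 0.25 (*Il6ra*) with adjusted permutation *p* values of at least 0.372. Given the index, r between *Jak1* and *Il6st* was 0.30, against 0.58 for *Socs2* and *Igf1*. Vehicle mice spanned the widest range of the index, from -0.69 to 0.65, and the group means were 0.072, 0.105, and 0.113 for vehicle, OCA, and INT-787. With the index in the fit, *Stat5b* with INT-787 had a log2 fold change of 0.45 and with OCA one of 0.29, whose adjusted *p* was then 0.0198.

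**Figure D5:**
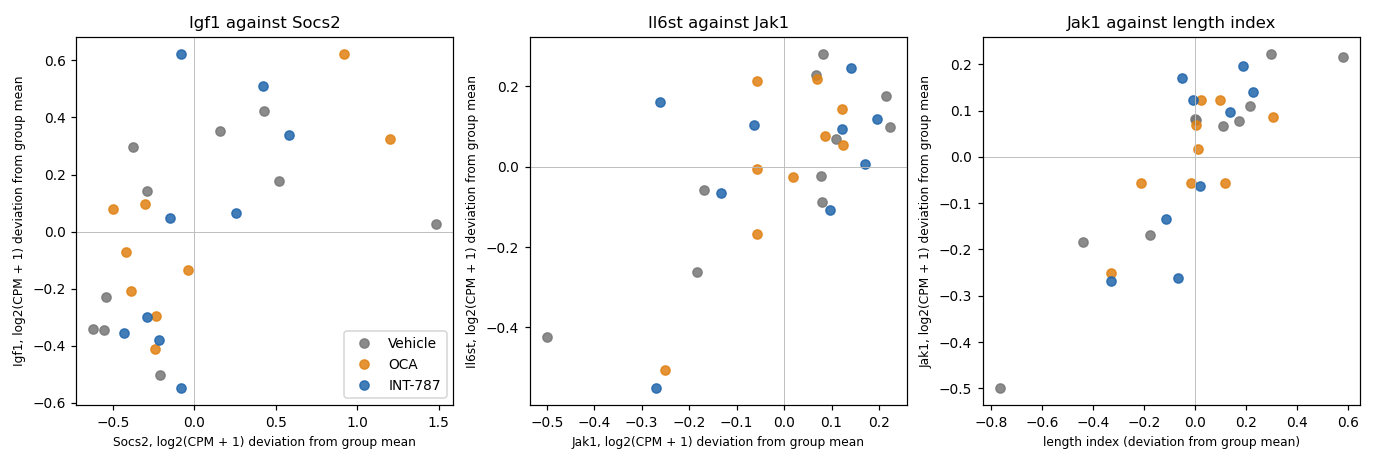
Deviations of log2(CPM + 1) from the group mean in each of the 28 mice, for *Igf1* (y) against *Socs2* (x), *Il6st* (y) against *Jak1* (x), and *Jak1* (y) against the length index (x), with vehicle in gray, OCA in orange, and INT-787 in blue. The Pearson r is 0.54, 0.68, and 0.85 from left to right, and a few mice low in both values lie at the lower left of the middle and right panels.

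The genes whose deviations most resembled those of the inhibitors over the 28 mice were sought among all 12580 tested genes, as a description without a test. For *Socs2* they were *1190002N15Rik* (r = 0.70), *B3galt1* (0.67), and *Abhd17b* (0.65). For *Socs3* they were *Naaa* (r = 0.65), *H2-Q4* (0.62), and *Ms4a4c* (0.61). *Cish* was most like *Mtg2* (r = 0.74), *Ms4a4c* (0.73), and *Cdc16* (0.71). *Ms4a4c*, a gene of low level at 0.874 CPM, was thus shared by *Socs3* and *Cish*.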

How the data were processed

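RNA was prepared from snap-frozen liver of each mouse as TruSeq stranded mRNA libraries and sequenced on a NextSeq 500. According to the methods and the processing notes, the authors aligned reads with STAR 2.5.2a to GRCm38 with Ensembl 89 and deposited raw counts per gene and mouse. The counting program and its strand setting are not given in the sources used here. Groups follow the labels, replicates are separate mice, and no 2 mice of a group agreed within sampling noise.

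From these counts, genes were kept with filterByExpr over the 3 groups, which left 12580 of 21935 genes and all 10 genes described. They were tested in 1 edgeR fit of 28 mice (R 4.3.3, edgeR 4.0.16, TMM scaling, quasi-likelihood test, two-sided), and *p* values were adjusted by the Benjamini-Hochberg method across every tested gene. Standard errors are the absolute log2 fold change divided by the square root of F. CPM values are TMM-scaled, and exon lengths and overlaps are from the GENCODE annotation of GRCm38, matched to 21858 genes. Alternatives were DESeq2 1.42.0, limma-voom (limma 3.58.1), other scalings, filters and blocks, fits of 2 groups only, and each mouse left out. Permutation tests were two-sided and ran in numpy 2.4.6. The fits were tested on simulated data.

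The 10 genes and all lists were chosen with earlier results of these data known. From each list, up to 4 genes called in any comparison, with a mean of at least 1 CPM, are named in order of the largest absolute log2 fold change. *Il6*, *Ghr*, and *Stat5a* are named whatever their result, as are the 3 genes most like *Socs2*, *Socs3*, and *Cish*. *Igf1* is named for its relation with *Socs2*, and *Ctf1* was added after its values were seen. The values of 1 listed gene that this rule names are not reported here.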

Additional observations from a re-analysis of the deposited data

Results flagged for a closer look

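For each of the 10 genes, the 3 groups were screened for a mouse whose gap to its nearest neighbour took up an unusually large share of the range of the group. Of 30 groups, 3 held such a mouse, and chance alone gives about 1 in 20. *Stat3* was at 109 CPM in OCA replicate 2, with the next OCA mouse at 78.8 CPM. *Socs2* was at 21.8 CPM in vehicle replicate 8, with the next vehicle mouse at 10.7 CPM, and the *Socs2* call with INT-787 was lost without this mouse (log2 difference -0.69, adjusted *p* = 0.0618). *Socs3* was at 16.8 CPM in INT-787 replicate 8, with the next INT-787 mouse at 7.23 CPM.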

How the results depend on the processing

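The count of called genes among the 10 depended on the processing. With INT-787 against vehicle it was 2, but 1 when a gene needed at least 10 counts in every mouse, since *Socs2* was then not tested, 1 at an adjusted *p* of 0.01, and 3 (*Socs3* added) when only the 2 groups were fitted. With 1 mouse left out it ran from 1 (without vehicle replicate 8) to 3 (without vehicle replicate 10). With OCA against vehicle it was 0, but 1 (*Stat5b* each time) with at least 10 counts in every mouse, with sets of neighbouring sample numbers as a factor (a fit in which vehicle replicate 4 and OCA replicate 9, alone in their sets, add nothing), and with the length index, which was added after the data were seen. It ran from 0 to 1 with 1 mouse left out. Between the drugs it was 0 under every alternative. No fold change of the 10 genes reversed while called. The main fit did not pair the mice by replicate number. Of same-numbered pairs in different groups, 14 of 27 correlated above 0.1, and 9 of 27 mice correlated best with their own number. The median r was 0.10 for these pairs against 0.0029 for other pairs. For sets of neighbouring sample numbers the same values were 15 of 25 pairs, 10 of 26 mice, and 0.14 against -0.010. Mice of the same number or set were thus more alike in the median, and what they shared was not tested. Fits with each as a factor are given beside the main fit. With the replicate block the counts were 3 (*Stat3* added), 0, and 0. Of 297 recomputed list counts, 31 moved by more than 1.5 times. Depth limited vehicle replicate 6 most, where 5 CPM came to 5.05 counts.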

Other observations

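*Il6ra* was looked at further because its mice fell into separate sets, a choice made after its values were seen. Over the 28 mice, as deviations from group means, the tested genes most like it were *Rhobtb1* (r = 0.92), *Lpin2*, a regulator of lipid metabolism (0.87), *Zbtb16*, a transcription factor gene (0.85), *Ppp1r3b*, a glycogen-targeting phosphatase subunit (0.85), and *Herpud1*, a gene of the endoplasmic reticulum stress response (0.83). *Stat5b* was most like *Zzef1* (r = 0.84), *Fbxo21* (0.79), *Mical2* (0.79), *Mlxipl*, encoding the carbohydrate response factor ChREBP (0.79), and *Zfyve26* (0.79). These are the highest of 12580 correlations for each gene and carry no test.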
